A study of Mus musculus with 4 samples.

Results

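The trophectoderm genes are 10 genes taken from the count table by their symbols: the transcription factor genes Cdx2, Eomes, Gata3, Tfap2a, Tfap2c, Hand1, Elf5 and Tead4, and the keratin genes Krt8 and Krt18. All 10 were found among the 50559 genes of the count table, and each had at least 1 count. The cells were mouse embryonic stem cells (ESCs) of the E14 line. Per the study's methods, its ESCs carried a tdTomato transgene under the MERVL promoter. In 1 group Cnot1 was silenced by siRNA (siCnot1), the other received a control siRNA without a target (siNT), and each group had 2 libraries. Cells were grown on gelatin with knockout serum replacement and leukemia inhibitory factor, and were collected 48 h after transfection. CNOT1 holds together CCR4-NOT, the main deadenylase complex, which shortens the poly(A) tails of mRNAs. A single cell line was used, and of the 2 siRNAs against Cnot1 that the study lists, the one used for these libraries is not named. Loss of Cnot1 and an off-target effect of the siRNA cannot be told apart here.

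The trophectoderm is the outer epithelium of the blastocyst and gives rise to the trophoblast of the placenta. In the outer cells of the embryo TEAD4 and its coactivator YAP switch on Cdx2 and Gata3, CDX2 and EOMES keep trophoblast stem cells in their state, and the keratins Krt8 and Krt18 form the first intermediate filaments of this epithelium. ESCs come from the inner cell mass and normally hold this programme down, and loss of CCR4-NOT subunits is known to open the trophectoderm fate in ESCs. The comparison therefore asks how the genes of that fate stood 48 h after Cnot1 was silenced.

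None of the tested trophectoderm genes was called higher (0 of 9 in edgeR), and 4 were called lower. Krt8 and Krt18 fell to 48.4% and 44.4% of their mean level in siNT, and Tead4 and Tfap2c to 70.4% and 71.5%. Cdx2, Eomes, Gata3, Tfap2a and Hand1 did not pass the test, and Elf5 was too low to be tested. The 4 called genes are 4 of 9 tested members, beside 14.7% of all 18144 tested genes called lower and 15.0% called higher (29.7% in either direction) by edgeR's quasi-likelihood test at an adjusted p under 0.05. No member was higher at an unadjusted p under 0.05 (0 of 9 in edgeR and 0 in DESeq2), and DESeq2 called the same number lower, 4. For the 9 tested members the median log2 fold change was -0.48, against 0.0084 for all tested genes. In bulk RNA, fewer cells of a type and less RNA per cell cannot be told apart.

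Counts on genes lay between 32135824 and 32557440 per library. Cnot1 itself stood at 913 and 986 CPM (counts scaled to library size with edgeR's TMM factors) in the controls, and at 185 and 192 CPM after silencing, as the labels have it. The ESC marker Pou5f1 was high in both groups, at a mean of 742 RPKM (normalized CPM per kilobase of exon) in siNT and 627 in siCnot1. It was itself called lower (log2 fold change -0.24, adjusted p = 0.00174 from edgeR). Replicates correlated at r = 0.988 in siNT and 0.989 in siCnot1 over log2 CPM of genes, which are not independent replicates. Libraries of different groups correlated at 0.976 to 0.977. Scaling by library totals in place of TMM moved the median log2 fold change of all tested genes from 0.0084 to 0.12. Under that scaling Krt8, Krt18, Tead4 and Tfap2c were still called lower, at -0.94, -1.06, -0.40 and -0.38.

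Levels per length set the 10 genes in a clear order in control cells. Tead4 was highest, at 18.0 ± 0.302 RPKM (SD, n = 2), followed by Tfap2c at 15.7 ± 0.137, Krt8 at 7.12 ± 0.176, Eomes at 4.82 ± 0.0134 and Krt18 at 3.63 ± 0.0677 (all SD, n = 2). The other genes were below 1 RPKM: Gata3 at 0.893 ± 0.432, Tfap2a at 0.711 ± 0.126, Hand1 at 0.447 ± 0.00956, Elf5 at 0.130 ± 0.0491 and Cdx2 at 0.112 ± 0.0745 (SD, n = 2). Tead4 was thus at percentile 79.0 of the tested genes and Cdx2 at percentile 7.76. In this order the replicate ranges of neighbours overlapped for 2 pairs, Gata3 with Tfap2a and Elf5 with Cdx2, and for no other pair. In siCnot1 the ranges of the same 2 pairs overlapped, and Eomes stood above Krt8. The defining trophectoderm regulator Cdx2 was therefore at the edge of detection in both groups, where Tead4 and Tfap2c were well expressed.

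**Figure D1:**
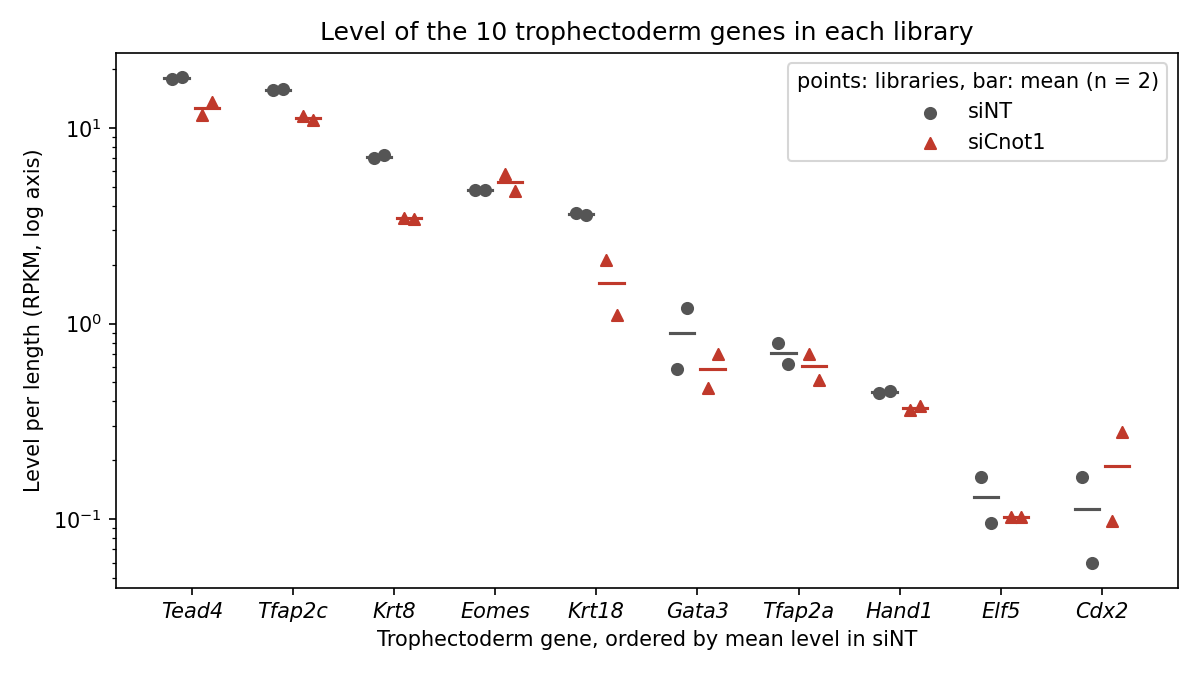
Level per length of each trophectoderm gene (RPKM, log axis) in the 2 siNT libraries (circles) and the 2 siCnot1 libraries (triangles), with the mean as a bar. The siCnot1 points lie below both siNT points for Tead4, Tfap2c, Krt8, Krt18 and Hand1, and the groups overlap for the other 5 genes.

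The keratins showed the largest falls. Krt8 (GRCm39 chromosome 15, 101905146 to 101912777, minus strand), the type II keratin of simple epithelia, had 12.6 and 13.1 CPM in siNT against 6.27 and 6.19 CPM in siCnot1. The groups were far apart and the replicates close. Its log2 fold change of -1.05 passed the test in edgeR (SE 0.148, adjusted p = 9.91e-06), with a 95% interval from -1.35 to -0.74. Of the genes called lower, 8.62% had a log2 fold change at or below that of Krt8, and the median of these genes was -0.36. Krt18 (chromosome 15, 101936651 to 101940461, plus strand), the type I partner with which KRT8 pairs in filaments, had 3.67 and 3.58 RPKM in siNT and 2.11 and 1.11 in siCnot1. Both siCnot1 libraries were lower, and they differed from each other far more than the controls did. In edgeR the log2 fold change was -1.17 (SE 0.267, adjusted p = 0.00177), with a 95% interval from -1.72 to -0.62. This call was lost when no filter was set on counts (adjusted p = 0.0745 from edgeR), and with 3 libraries when siNT replicate 1, siNT replicate 2 or siCnot1 replicate 2 was left out (adjusted p = 0.139, 0.111 and 0.0670 from edgeR), where the log2 fold change stayed between -1.19 and -0.79. Without siCnot1 replicate 1 it was -1.71 (adjusted p = 0.00378 from edgeR).

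Per length, Krt8 exceeded Krt18 by ratios of 1.91 and 2.03 in the controls and of 1.65 and 3.09 after silencing, with the siCnot1 values on both sides of the controls. The pair lies on opposite strands 23874 bases apart. A processed copy of Krt8, Krt8-ps, had 4 and 3 counts in siNT and 0 and 0 in siCnot1, against 393 and 410, and 210 and 207, for Krt8 itself. Reads that fit both copies could be split between them or dropped by the counting. Eif4b, a translation initiation factor gene 41747 bases beyond Krt18, was called lower (log2 fold change -0.49, adjusted p = 2.72e-07 from edgeR). Called neighbours of other members, within 50000 bases, went both ways. Cat beside Elf5 fell (-0.54). Tulp3 beside Tead4 (0.26), Golga4 beside Eomes (0.19) and Galnt10 beside Hand1 (1.11) rose. LOC118567945 beside Hand1 had 13 and 5 counts in siNT and 26 and 33 in siCnot1. It needed the siCnot1 libraries, where it is high, to pass the filter. Its call as higher (1.60, adjusted p = 0.0499 from edgeR) is therefore given no weight. Among the other keratins of simple epithelia, Krt19 fell from 2.72 and 1.98 RPKM to 1.48 and 1.33 (log2 fold change -0.75, adjusted p = 0.0449 from edgeR). Krt7 had 2 and 4 counts in siNT, around the floor of 3, and 16 and 22 in siCnot1. It passed the filter only through the siCnot1 libraries, where it is high, so its call as higher is given no weight. Krt20 did not pass (0.36, adjusted p = 0.673 from edgeR). Summed per length, these 5 keratins stood at 13.8 and 13.1 RPKM in siNT and 7.78 and 6.59 in siCnot1, and Krt7 made up at most 6.29% of the sum.

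The promoters of both keratins are shown because these genes fell together, and because GATA3 and the AP-2 proteins are themselves encoded by members. Each window runs from 250 bases before to 50 bases after the gene's start in RefSeq (GRCm38.p6). Capitals mark matches to the AP-2 motif GCCNNNGGC, to the TEAD motif GGAATG or its reverse complement CATTCC, and to the GATA motif AGATAA or its reverse complement TTATCT. The first window is chr15:102004293-102004592 on the minus strand and the second chr15:102027966-102028265 on the plus strand.
Krt8: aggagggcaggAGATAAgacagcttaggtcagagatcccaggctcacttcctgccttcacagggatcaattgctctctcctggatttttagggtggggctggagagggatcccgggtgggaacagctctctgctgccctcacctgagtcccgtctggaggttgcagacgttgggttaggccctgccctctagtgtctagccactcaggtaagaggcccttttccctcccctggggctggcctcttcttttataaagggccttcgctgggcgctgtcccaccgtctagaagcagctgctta
Krt18: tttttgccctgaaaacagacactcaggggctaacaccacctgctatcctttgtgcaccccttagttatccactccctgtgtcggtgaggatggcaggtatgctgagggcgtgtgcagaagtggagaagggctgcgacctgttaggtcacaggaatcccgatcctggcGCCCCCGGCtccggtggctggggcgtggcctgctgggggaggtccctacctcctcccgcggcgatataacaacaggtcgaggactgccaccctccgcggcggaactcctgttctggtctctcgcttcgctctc
Krt8 had a GATA match and Krt18 an AP-2 match, and neither had a TEAD match. Of 32841 promoter windows of the same length in the table, 16.6% held the AP-2 motif, 14.7% the TEAD motif and 11.2% the GATA motif. Promoters were listed for 7 of the 10 members, in 9 windows, and not for Tfap2c, Hand1 and Tead4. The AP-2 motif also occurred in the windows of Cdx2 and, 3 times, Gata3, and the TEAD motif in 1 of those of Elf5. A match of letters describes the window and shows no binding.

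Tead4 (chromosome 6, 128204106 to 128277776, minus strand) encodes the TEAD factor required for trophectoderm formation. It had 17.7 and 18.2 RPKM in siNT and 11.7 and 13.6 in siCnot1. Both siCnot1 libraries were below both controls. Tead4 changed by -0.51 on the log2 scale (SE 0.0889, adjusted p = 0.000127 from edgeR), with a 95% interval from -0.69 to -0.32. With siNT replicate 1 left out the adjusted p was 0.0541 in edgeR, at a log2 fold change of -0.53. The fall was set beside the rest of its family. Tead1 did not pass (-0.085, adjusted p = 0.279 from edgeR), and neither did Tead3 (0.10, adjusted p = 0.809). Tead2, the most abundant TEAD gene here, was barely past the threshold (-0.16, adjusted p = 0.0496 from edgeR), and was not called with library totals, with no filter, in DESeq2, with the replicate block or with any library left out. Tead4 made up 17.1% and 18.0% of the summed TEAD level per length in siNT and 13.2% and 15.2% in siCnot1, so most TEAD mRNA in these cells came from Tead2 and Tead1.

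Tfap2c (chromosome 2, 172387599 to 172400542, plus strand) encodes AP-2 gamma, a trophectoderm regulator that is also active in ESCs and germ cells. It had 57.9 and 58.6 CPM in siNT and 42.5 and 40.9 in siCnot1, so the groups were well apart and the replicates close. Its change was -0.48 on the log2 scale (SE 0.0819, adjusted p = 8.75e-05 from edgeR), with a 95% interval from -0.65 to -0.31. Tfap2a (chromosome 13, 40867278 to 40891715, minus strand), which encodes AP-2 alpha, had 0.800 and 0.622 RPKM in siNT and 0.697 and 0.513 in siCnot1. These ranges overlapped, and the log2 fold change of -0.23 did not pass (adjusted p = 0.490 from edgeR), with a 95% interval from -0.71 to 0.24. Whether the changes of the 2 genes differ was not tested. Tfap2c made up 93.0% to 96.0% of the summed AP-2 level per length in the 4 libraries. Tfap2b had 0 counts in every library, which allows a level of up to 0.0964 CPM, and Tfap2e had 2 and 2 counts in siNT and 12 and 7 in siCnot1.

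**Figure D2:**
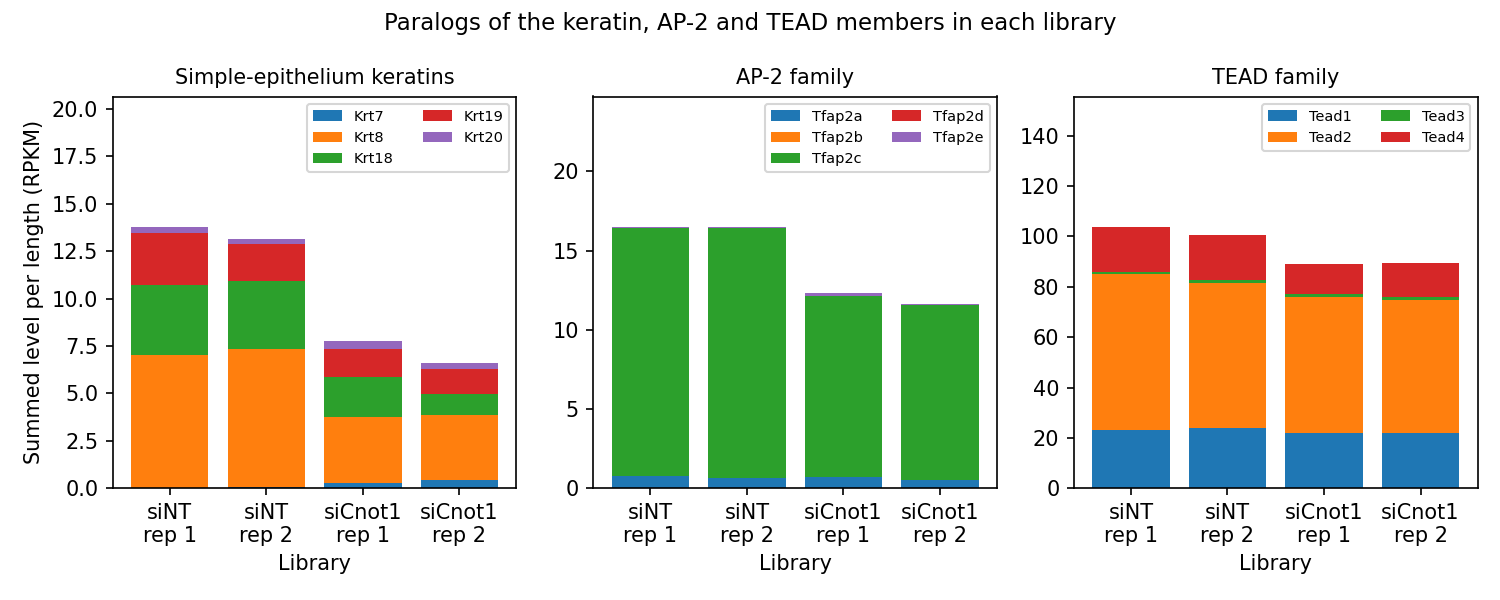
Summed level per length (RPKM) of keratins of simple epithelia, AP-2 genes and TEAD genes in each of the 4 libraries, split by gene. Krt8 and Krt18 take most of the keratin bars, which drop from 13.8 and 13.1 to 7.78 and 6.59, Tfap2c takes nearly all of the AP-2 bars, and Tead4 is a minor part of the TEAD bars.

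CCR4-NOT is brought to many mRNAs by proteins that bind AU-rich and Pumilio elements in 3′ UTRs, so these letters were looked for in GENCODE M21 transcripts. All 10 members had an annotated 3′ UTR. The AU-rich heptamer TATTTAT occurred in 3 of them, Gata3, Tfap2a and Tfap2c, and the Pumilio motif TGTANATA in 2, Tfap2a and Tfap2c. Among the 13945 tested genes with an annotated 3′ UTR, 76.9% of all tested genes, 29.2% held the heptamer and 25.4% the Pumilio motif. Tfap2a and Tfap2c held 4 heptamers each, in 3′ UTRs of 1813 and 1243 bases, where the median of the tested genes was 1094. In Tfap2a the heptamers at bases 652 to 658 and 656 to 662 overlap. How many of all genes hold 4 copies was not counted. The bases just before 1 Pumilio match of each of these genes were alike. Those windows are printed with the Pumilio match in capitals. Without gaps 19 of their 30 bases are identical, the motif itself included, and the bases after the motif mostly differ.
Tfap2a: ttaatgggattTGTAAATAtggtgagtctg
Tfap2c: ttaatgggatcTGTAAATActtcttatgac
Krt8, Krt18 and Tead4, which fell, held neither motif, and their 3′ UTRs were 242, 66 and 1223 bases long. Tfap2c, with both motifs, fell as well. Tfap2a, with both motifs, and Gata3, with the heptamer, did not pass, and neither did Cdx2, Eomes and Hand1, which held none. Whether the motifs go with the changes was not tested. Only the letters on the transcript strand were searched, and they show no binding.

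Gata3 (chromosome 2, 9861889 to 9892762, minus strand), a trophectoderm regulator acting in parallel with Cdx2, had 71 and 146 counts in siNT and 61 and 91 in siCnot1. The control replicates differed widely and the groups overlapped. A log2 fold change of -0.61 did not pass (SE 0.311, adjusted p = 0.148 from edgeR), and its 95% interval ran from -1.25 to 0.031. With siNT replicate 2 left out the log2 fold change was -0.0089, against -1.04 without siNT replicate 1. Of its paralogs, Gata2, which also acts in trophoblast, was at -0.60 (adjusted p = 0.140 from edgeR), and the endoderm gene Gata4 at 0.79 (adjusted p = 0.0694 from edgeR).

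Eomes (chromosome 9, 118307254 to 118315200, plus strand), a T-box factor of trophoblast stem cells and of early mesendoderm, had 559 and 561 counts in siNT and 728 and 590 in siCnot1. On the normalized scale these were 18.0, 17.9, 21.7 and 17.6 CPM. Replicate 2 of siCnot1 lay just under the controls and replicate 1 above them. The change of 0.13 on the log2 scale did not pass (SE 0.118, adjusted p = 0.431 from edgeR), with a 95% interval from -0.11 to 0.38, which leaves out a 2-fold rise. Without siCnot1 replicate 1 its sign turned, to -0.028.

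The remaining regulators were near the floor of 3 counts or not far above it. Hand1 (chromosome 11, 57719539 to 57722973, minus strand), a factor of trophoblast giant cells, had 26 and 27 counts in siNT and 23 and 24 in siCnot1. The siCnot1 values were both lower, but at a log2 fold change of -0.27 with a 95% interval from -1.29 to 0.74 the difference was not detectable at this depth (adjusted p = 0.731 from edgeR). Cdx2 (chromosome 5, 147237710 to 147244059, minus strand), the homeobox factor that defines the trophectoderm, had 11 and 4 counts in siNT and 7 and 20 in siCnot1. It passed the filter on low counts through 1 library of each group. Its log2 fold change of 0.74 had a 95% interval from -0.86 to 2.34 (adjusted p = 0.522 from edgeR), and without siCnot1 replicate 2 it was -0.20. Cdx2 was the 1 tested member whose interval included a 2-fold rise, which these counts were too few to show or to leave out. Elf5 (chromosome 2, 103242443 to 103281334, plus strand), an ETS factor that is methylated and silent in ESCs and active in trophoblast stem cells, had 12 and 7 counts in siNT and 8 and 8 in siCnot1. It did not pass the filter, and with no filter edgeR gave it a change of -0.35 on the log2 scale (SE 0.665, adjusted p = 0.785). Elf3, another epithelial ETS gene, was far higher than Elf5 and fell from 54.0 and 48.4 RPKM to 37.7 and 38.9 (log2 fold change -0.42, adjusted p = 6.78e-05 from edgeR). Ehf fell too, from 66 and 65 counts to 19 and 40 (log2 fold change -1.25, adjusted p = 0.0168 from edgeR).

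**Figure D3:**
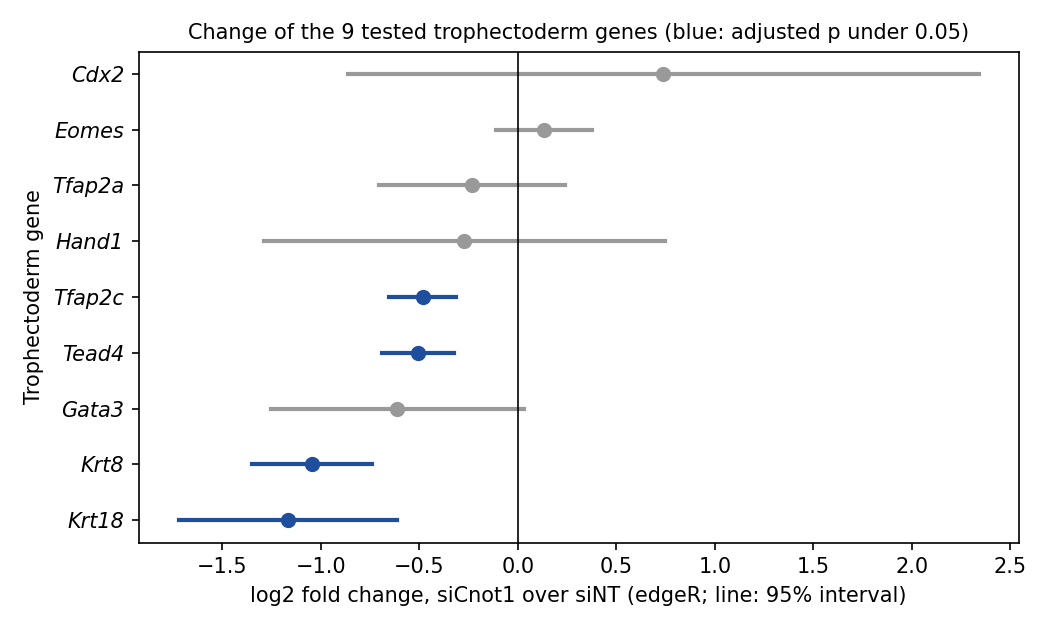
Log2 fold change of siCnot1 over siNT for the 9 tested trophectoderm genes, with 95% intervals from edgeR's fit (n = 2 per group). Krt18, Krt8, Tead4 and Tfap2c lie wholly below 0, and the interval of Cdx2 is the widest, from -0.86 to 2.34.

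The 2 siCnot1 libraries lay below both siNT libraries for 5 of the 10 genes, the 4 called genes and Hand1, and above them for 0, while the groups overlapped for the other 5. Over all tested genes, 31.2% had both siCnot1 libraries below and 32.7% had both above. Genes that overlap a member took few reads: 5 genes overlap Eomes, Gata3, Tfap2a or Hand1, and each had at most 3 counts in any library. At the threshold of the study's methods (unadjusted p up to 0.05 and a change of 1 or more on the log2 scale, either way), Krt8 and Krt18 were the 2 members called, beside 7.98% of all tested genes called in either direction by edgeR.

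**Figure D4:**
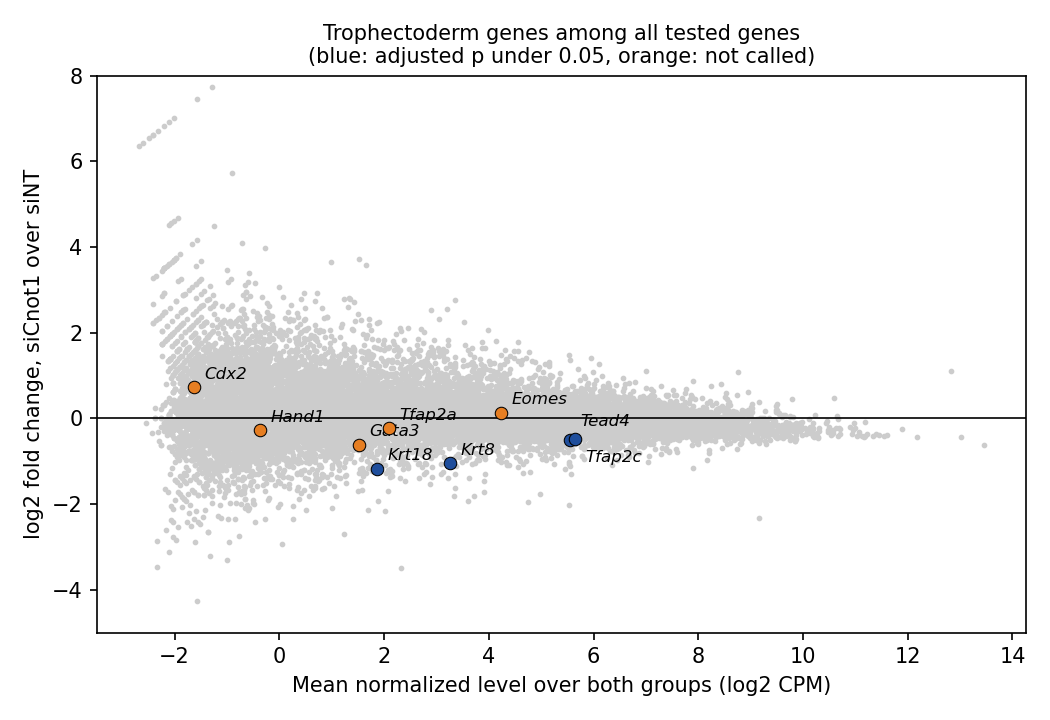
Log2 fold change of siCnot1 over siNT against mean level (log2 of normalized CPM) for the 18144 tested genes (grey), with the 9 tested trophectoderm genes marked (blue, called; orange, not called). Krt8 and Krt18 lie near the lower edge of genes of their level, and the remaining members lie within the bulk.

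Other genes of the trophectoderm programme moved in both directions. Of 14 further genes of trophectoderm and trophoblast stem cells, mostly regulators, 13 were tested, 4 fell and 3 rose, with a median log2 fold change of -0.14. These counts and those of the lists below stand beside 14.7% of all tested genes called lower and 15.0% called higher. No test of a whole list was run. Esrrb, among the 4 that fell (log2 fold change -0.19, adjusted p = 0.0102 from edgeR), is counted again among the pluripotency genes below. Ets2, an ETS factor needed for trophoblast stem cells, fell from 2040 and 2138 counts to 1389 and 1425 (log2 fold change -0.67, adjusted p = 9.82e-07 from edgeR). Klf5, which is needed in both trophectoderm and ESCs, fell from 108 and 109 to 77.0 and 81.0 RPKM (-0.46, adjusted p = 2.98e-06). Lrp2, an endocytic receptor of the trophectoderm and other epithelia, rose from 2.45 and 2.72 to 6.39 and 6.16 RPKM (1.28, adjusted p = 5.13e-11), and Satb1 rose by 0.89 on the log2 scale (adjusted p = 3.49e-06, all from edgeR).

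Genes of the trophectoderm epithelium, those of junctions, transport and adhesion, moved in both directions. All 15, Krt7 and Krt19 among them, were tested, of which 7 rose and 4 fell, with a median of 0.20. The 7 and the median include Krt7, which passed the filter only through the siCnot1 libraries and is given no weight. Ocln, a tight junction protein, rose from 1.61 and 1.64 to 3.05 and 3.20 RPKM (log2 fold change 0.94, adjusted p = 2.51e-05 from edgeR), and Atp1b1, the sodium pump subunit of the blastocyst wall, rose by 0.38 on the log2 scale (adjusted p = 3.20e-05 from edgeR). Cdh1, E-cadherin, had a log2 fold change of -0.37 (adjusted p = 1.36e-05 from edgeR), and Cldn7, a claudin, fell from 1.62 and 1.73 to 0.452 and 0.638 RPKM (-1.62, adjusted p = 0.00137 from edgeR). Without the filter on low counts 3 rose and in DESeq2 4 rose, in place of 7.

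Genes of differentiated trophoblast ranged from no counts to high levels. Of 18, 7 were tested, 1 rose and 2 fell, and 7 had 0 counts throughout. The placental lactogen genes Prl3d1 and Prl3b1, with Prl2c2, Tpbpa, Tpbpb, Synb and Ctsq, had 0 counts in all 4 libraries, which allows up to 0.0964 CPM per library. Peg10, an imprinted gene active in placenta and in ESCs, fell from 63.5 and 66.2 to 39.4 and 41.1 RPKM (log2 fold change -0.69, adjusted p = 4.19e-09 from edgeR). Gcm1, the factor of syncytiotrophoblast, had 35 and 24 counts in siNT and 7 and 14 in siCnot1 (-1.58, adjusted p = 0.0438 from edgeR). It needed the siNT libraries, where it is high, to pass the filter, so its call as lower is given no weight. Peg10 and Gcm1 were the 2 called lower, and only 1 of this list was called lower under most other settings. Cdkn1c, a cell cycle inhibitor, had 15 and 40 counts in siNT and 94 and 65 in siCnot1 (1.43, adjusted p = 0.00873 from edgeR).

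The Hippo-TEAD genes, mostly of the pathway that acts upstream of Cdx2 in the embryo, were mostly not called. YAP target genes are also in this list. All 19 were tested, 1 rose and 1 fell, and the median was 0.037. Lats2, a kinase that inhibits YAP, rose from 2.22 and 1.95 to 3.28 and 2.72 RPKM (log2 fold change 0.52, adjusted p = 0.00370 from edgeR), and the gene called lower was Tead2. The YAP target gene Ccn1 was at 0.24 and did not pass (adjusted p = 0.0571 from edgeR). With library totals 6 of the list were called higher, in place of 1.

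**Figure D5:**
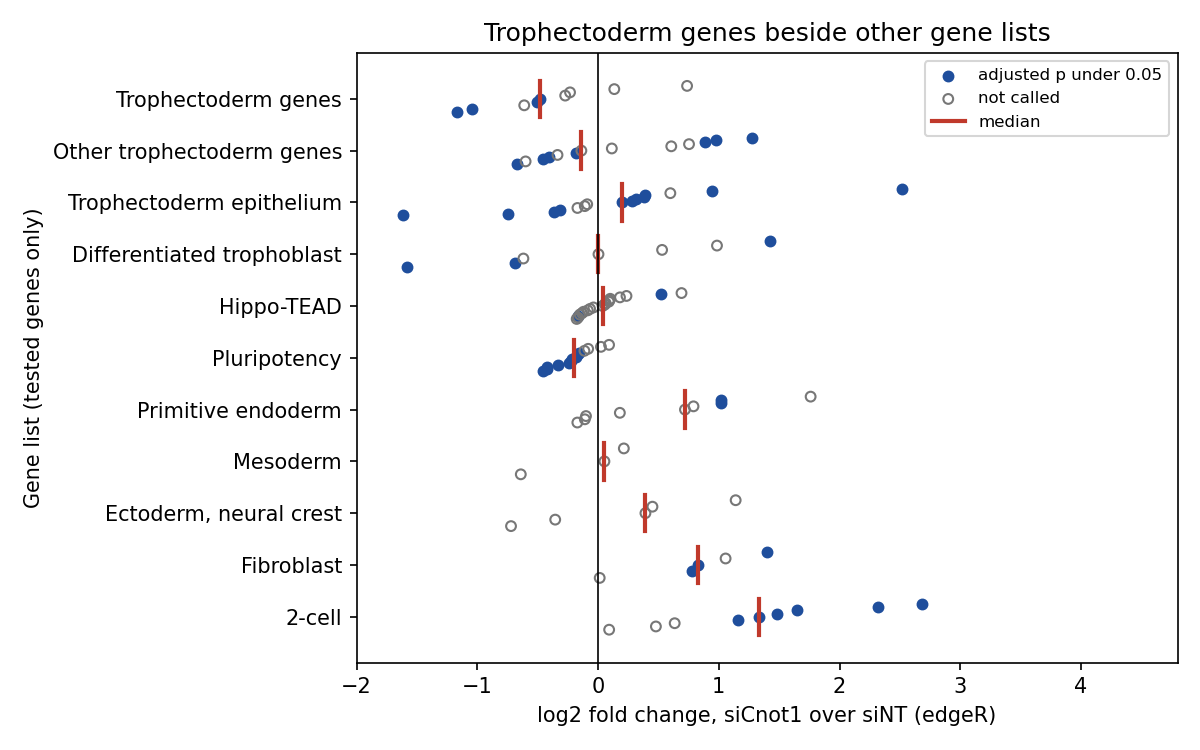
Log2 fold change of siCnot1 over siNT for the tested genes of each list, filled where called by edgeR at an adjusted p under 0.05, with the median as a red bar. The trophectoderm genes have a median of -0.48 and no called gene above 0, while the epithelium list has called genes on both sides.

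Markers of other cell types were read beside these values and beside the shares of all tested genes, 14.7% called lower and 15.0% called higher. Of 14 pluripotency genes 10 fell and the other 4 did not pass, with a median of -0.20, and their summed level went from 5102 and 4732 RPKM to 3855 and 4046. Dppa5a was the largest part of that sum, at 2228 and 1942 RPKM in siNT and 1506 and 1609 in siCnot1. Of 9 tested primitive endoderm genes 2 rose, Dab2 (1.02) and Pdgfra (1.02), and the summed level of the list went from 3.89 and 3.04 to 4.98 and 5.07 RPKM. Of 5 tested fibroblast genes 3 rose, Twist1 (0.83), Pdgfrb (0.78) and Col1a1 (39 and 48 counts in siNT, 116 and 131 in siCnot1), and the summed level of the list went from 8.76 and 10.4 to 13.5 and 13.0 RPKM, while Col3a1 and Dcn had 0 counts in all libraries. The 3 tested mesoderm genes and the 5 tested genes of ectoderm and neural crest did not pass, and T had 0 counts in all 4 libraries. Of 9 tested 2-cell genes 6 were called higher by edgeR: Tmem92 (87 and 85 counts in siNT, 478 and 445 in siCnot1, log2 fold change 2.32), Usp17la (1.65), Zscan4d (1.48), Zscan4c (1.33), Zscan4a (1.16) and Tcstv1. The Zscan4 genes are near-identical copies, so their reads could be split among them. Tcstv1 had 1 and 2 counts in siNT, under the floor of 3, and 11 and 11 in siCnot1. It passed the filter only through the siCnot1 libraries, so its call as higher is given no weight. Whether a change in the mix of cells has a part in the falls of Krt8, Krt18, Tead4 and Tfap2c was not tested.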

How the data were processed

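RNA-seq of 2 siNT and 2 siCnot1 libraries was analysed. Per the labels and the study's methods, the authors made poly(A)+ libraries with dUTP strand marking and paired-end reads on the NovaSeq platform. The submitters' processing notes name fastp 0.19.4, HISAT2 2.2.1, DESeq2 1.40.2 and mm10, but the gene positions in the table are those of GRCm39. The authors deposited raw counts per gene, unpooled and without normalization, with the exon length of each gene in bases. The counting program, its strand setting and the annotation are not given in the sources used here.

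Genes passing edgeR's filterByExpr (minimum count 10) were scaled by TMM and tested with edgeR 4.0.16 (quasi-likelihood test, condition only, Benjamini-Hochberg adjustment over 18144 genes) in R 4.3.3. A gene was called at an adjusted p under 0.05. Standard errors (SE) were taken from F, as the size of the change over its square root, and 95% intervals from the t distribution. Simulated counts were used to test the fit. DESeq2 1.42.0 was an alternative. The floor was 3 counts, 0.0896 to 0.0964 CPM, which covers counting error only. Promoters came from RefSeq (GRCm38.p6) and 3′ UTRs from GENCODE M21 (GRCm38), joined by symbol, the longest coding transcript being used. Positions of the 2 builds were kept apart.

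The members, the gene lists and the tests were chosen with earlier results of these data known. The text names all members and Cnot1, up to 4 genes per list by smallest adjusted p, any list gene that passed with a change of 1 or more on the log2 scale, and paralogs or neighbours of members. Pou5f1, Esrrb and markers at 0 were named after their values were seen. The study's methods call the 2 replicates of a group biological and independent.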

Additional observations from a re-analysis of the deposited data

How the results depend on the processing

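Krt8 and Tfap2c kept their direction and their call under every alternative: scaling by library totals or by DESeq2's size factors, no filter on counts, at least 1 CPM in 2 libraries, DESeq2, the replicate number as a block, and each library left out in turn, with the lone library of a group then assumed to vary like the other group. Krt18 and Tead4 lost the call where stated above, and the other tested members were not called under any alternative (at 1 CPM 7 members were tested). With 1 library left out, the log2 fold change of Cdx2 ran from -0.20 (without siCnot1 replicate 2) to 1.63, and that of Eomes from -0.028 (without siCnot1 replicate 1) to 0.27. Leaving out 1 library gave 2 (without siNT replicate 1) to 4 members lower and 0 higher. For all tested genes it gave 871 to 1463 lower and 743 to 1439 higher. Library totals gave 1563 lower, and no filter 1450 lower and 1303 higher. The share of calls that were higher was 50.5%, and 71.9% with library totals.

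The replicate numbers 1 and 2 of the groups pair no known source. Over 18144 genes, the deviations of same-numbered libraries correlated at 0.011. With the replicate block 4 members were lower and 0 higher, and the log2 fold change of Krt18 was -1.21, so that no member's call changed. Without 1 library, the other genes of trophectoderm and trophoblast stem cells gave 2 to 3 lower and 3 higher, epithelium genes 2 to 3 lower and 3 to 5 higher, trophoblast genes 1 lower and 0 to 1 higher, and Hippo-TEAD genes 0 lower and 0 to 1 higher. Epithelium genes that rose numbered 3 with no filter and 4 in DESeq2. Trophoblast genes that fell numbered 1 with library totals, no filter, at least 1 CPM in 2 libraries, DESeq2 and the block, and 0 rose with no filter. Of the Hippo-TEAD genes 0 fell with library totals, no filter, DESeq2 and the block, and those that rose numbered 6 with library totals, 0 with no filter and 3 with at least 1 CPM in 2 libraries. The causes were not tested. Depth limits Cdx2, Elf5 and Hand1, each under 30 counts in every library.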
